A study of Mus musculus with 18 samples.

Results

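The regions described here are stretches of chromatin where a peak was called only when Ikzf1 and Ikzf4 had been added to Brn2 and Myt1l. They were found by ATAC-seq, in which a transposase cuts open chromatin and a peak marks a stretch cut more often than its surroundings. Peaks of 6 fibroblast libraries were merged where they overlapped by at least 1 bp, which gave 321676 regions. A region was taken as gained where all 3 libraries with Ikzf1 and Ikzf4 had a peak and none of the 3 libraries without them did. This rule chose 30344 regions, 9.43% of all merged regions. The reverse rule, a peak in all 3 libraries without and in none with, gave 11805 lost regions (3.67%), and 76980 regions had a peak in all 6 libraries. Gained regions were thus chosen by the presence or absence of a called peak in these same lists, so their number and strength are described without a test.

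The cells were mouse embryonic fibroblasts of the R26-M2rtTA line on a C57BL/6 background. Brn2 (gene Pou3f2) and Myt1l were delivered by doxycycline-inducible lentivirus in all 6 libraries, and 3 of the 6 also received Ikzf1 and Ikzf4 in the same way. Nuclei (50000 per library) were taken 48 h after doxycycline was added. The reference in every comparison is therefore fibroblasts with Brn2 and Myt1l, and fibroblasts without any factor were not analysed here. Nothing in the labels says whether the 3 replicates of a group came from separate embryos or infections. In such bulk samples, a region open in more cells and a region more open in the same cells cannot be told apart.

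Ikzf1 (Ikaros) and Ikzf4 (Eos) are zinc finger transcription factors of the Ikaros family. They are best known from lymphocytes, where they bind DNA together with chromatin remodelling complexes and can either close or open chromatin. In the retina Ikzf1 is known as a factor of early progenitors. Brn2, a POU factor, and Myt1l, a zinc finger repressor of non-neuronal genes, are used together to turn fibroblasts into neurons. Peaks that appear when a factor is added are commonly read as candidate enhancers or promoters, but a peak alone does not show that the factor binds there.

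The labelled cell type was checked in RNA of the same design. All 20 genes of a fibroblast and matrix list had a mean normalised count of at least 100 in the authors' deposited table. Of 20 lymphoid and blood cell genes in the authors' deposited table, 4 did (Spi1, Ebf1, Runx1 and Ptprc), and Ptprc, which marks blood cells, was at 1168. The part of such cells in the peak lists was not tested. In the authors' deposited table the added factors had log2 fold changes of 8.54 for Ikzf4 (SE 0.15) and 7.76 for Ikzf1 (SE 0.17), while of the factors in both groups Pou3f2 was at -0.05 (SE 0.08) and Myt1l at 0.50 (SE 0.17, the authors' adjusted p 0.0157).

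The lists without Ikzf1 and Ikzf4 held 200040, 169646 and 131297 peaks, and those with them 197858, 200383 and 207243. Replicate 3 of the group without stood apart as the shortest list. The read depth of these libraries is unknown, because the lists give no read counts. Each list reached down to a -log10 q of about 1, so an absent peak means a signal below that limit and not closed chromatin. Without that short list, 31597 regions were gained and 24933 were lost, so the number of lost regions moved far more than that of gained ones. The ratio of gained to lost regions was 2.57 with it and 1.27 without it. Without it, a lost region needed a peak only in both remaining lists of that group, while a gained one still needed all 3 lists with. The ratios are therefore not like for like.

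Most gained regions were weak peaks. Their median -log10 q was 2.86, 2.82 and 2.91 in the 3 lists with Ikzf1 and Ikzf4, and their median fold over the background of the peak caller was 2.76, 2.71 and 2.70. These values are the authors'. Within each list the median gained region stood at percentile 44.0, 45.6 and 43.1 of all its peaks by -log10 q, a little below the middle. Regions with a peak in all 6 lists stood at percentiles 74.1, 74.5 and 76.1 of the same lists. Lost regions, the reverse class, stood at 57.6, 50.5 and 39.0 of the 3 lists without, so a place near the middle was not particular to gained regions.

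Only a small part of the gained regions was strong in every replicate. The lowest -log10 q of the 3 lists was at least 5 for 1791 regions (5.90%) and at least 10 for 102. In 21650 regions (71.3%) all 3 values were under 5, and in 1678 (5.53%) at least 1 of the 3 peaks had a q over 0.05. Across all 30344 regions the values of 2 lists went together only moderately, with Spearman correlations of 0.52 to 0.54 for -log10 q, against 0.83 to 0.84 in the 76980 regions of all 6 lists. These are descriptions across regions of the same libraries, and the sets differ in their range of values. Within a gained region the highest -log10 q was 1.67 times the lowest at the median, and the highest fold 1.18 times the lowest.

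Gained regions were short and usually made of 1 peak per list. Their merged width had a median of 522 bp, 5% were under 258 bp and 5% over 1245 bp, and the longest spanned 3386 bp. In 29693 of them (97.9%) each list gave exactly 1 peak. The peaks of the 3 lists shared a common core with a median of 240 bp, while 528 of these regions had no base that lay in all 3 peaks. Together the gained regions covered 18.5 Mb, 8.19% of the length of all merged regions.

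The 6 strongest gained regions stood apart from all others and lay in 2 places, on chromosomes 10 and 11. The gene table used here (assembly GRCm38.p6) places Ikzf4 on the first of these chromosomes and Ikzf1 on the other, the genes whose vectors only these 3 libraries carried. Positions below are those of the deposited lists (mm9). The strongest, on chromosome 11 from 11668907 to 11669801, had a -log10 q of 353, 357 and 283 in replicates 1 to 3 and was absent from the 3 lists without Ikzf1 and Ikzf4. The second, on chromosome 10 from 128071127 to 128071853, had 245, 236 and 273. In all 3 lists both lay above any gained region outside these places, where the highest value was 36.6.

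The other members of the chromosome 10 group were small. The region from 128078104 to 128078372 had a -log10 q of 166, 137 and 215, with folds of 9.74, 9.23 and 10.2. The region from 128077195 to 128077370 had 85.0, 77.1 and 124.8, the lowest mean of the 6. On chromosome 11 the largest folds of all gained regions were found: 17.4, 16.5 and 15.2 from 11648312 to 11648580, where the -log10 q was 177, 168 and 136. The region from 11654004 to 11654183 followed with folds of 14.7, 13.2 and 12.9.

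These 6 regions also had unusually exact borders. In 5 of the 6, starts and ends agreed within 3 bp in the 3 lists, and on chromosome 11 the strongest region began and ended at the same base in each list. Among the other 30338 gained regions 6 had borders that exact, and the median spread was 105 bp at the start and 105 bp at the end. The mean folds of the 6 ran from 6.72 to 16.4, and the highest mean fold of any other gained region was 6.53. The chromosome 10 group spanned 7.25 kb and the chromosome 11 group 21.5 kb, less than the lengths of Ikzf4 (38.8 kb) and Ikzf1 (88.0 kb) in GRCm38.p6. The gained signal at these places and DNA of the vectors themselves cannot be told apart in the peak lists.

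**Figure D1:**
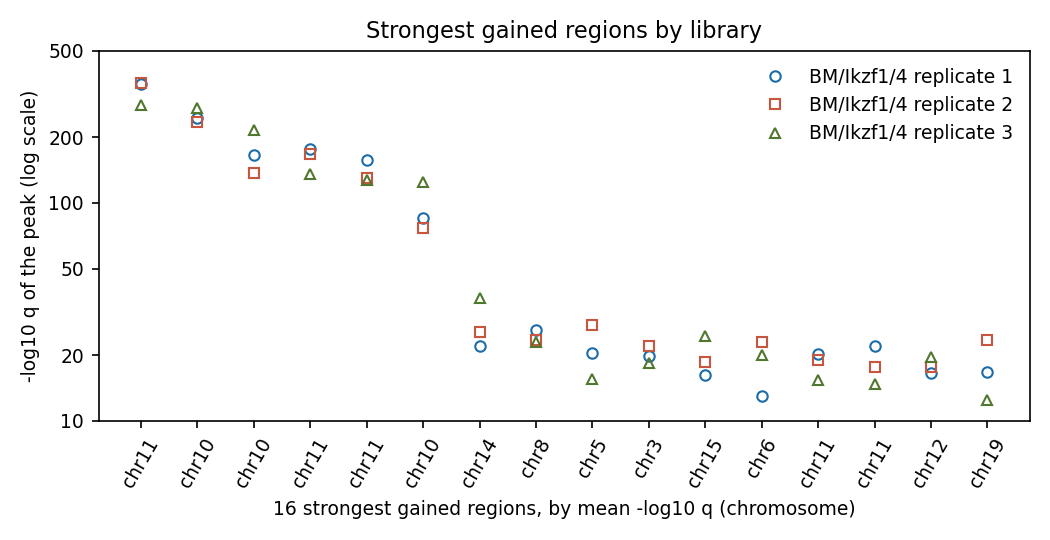
The -log10 q of the 16 strongest gained regions in each of the 3 libraries with Ikzf1 and Ikzf4 (points, log scale), ordered by their mean. The 6 regions on chromosomes 10 and 11 lie between 77.1 and 357, and the next 10 between 12.5 and 36.6.

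Away from these places the strongest gained region lay on chromosome 14 from 91310366 to 91311061, with a -log10 q of 22.1, 25.5 and 36.6 and folds of 4.85, 5.27 and 7.03. The next, on chromosome 8 from 25493647 to 25494623, had 26.2, 23.6 and 23.1, the smallest spread among the first 9 (SD 1.65). A 340 bp region on chromosome 5 from 106605537 to 106605876 varied more, with 20.5, 27.7 and 15.5. The lowest percentile of these regions in any list was 95.6. A region on chromosome 3 from 93197822 to 93198706 had the highest mean fold outside the first 6, from 6.62, 7.00 and 5.98.

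The following 6, named after their values were seen, were on chromosomes 15, 6, 11, 11, 12 and 19, with mean -log10 q from 17.6 to 19.8. On chromosome 15 from 58957511 to 58958424 the values were 16.3, 18.7 and 24.6, and the nearest other gained region was 199 kb away. On chromosome 6 from 105600820 to 105601655 they were 13.0, 23.1 and 20.1. On chromosome 19 from 23332895 to 23333636 they were 16.8, 23.4 and 12.5. No replicate was highest throughout: each of the 3 lists gave the highest value in some of these regions.

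At the weak end, the gained region with the lowest mean lay on chromosome 14 from 32302728 to 32303708, with a -log10 q of 1.17, 1.15 and 1.21. The next lowest, on chromosome 10 from 54555050 to 54555615, had 1.47, 1.07 and 1.14. Regions just outside the rule were stronger or weaker depending on which list broke it. The 15135 regions with a peak in all 3 lists with Ikzf1 and Ikzf4 and in 1 list without had a median mean -log10 q of 3.25 in the lists with, against 2.93 for gained regions. In 9646 of these (63.7%) the single list without was replicate 1, the longest of that group, and in 1210 (7.99%) it was replicate 3, the shortest. The 22010 regions with a peak in 2 lists with and none without were weaker, at 2.08.

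The share of regions that counted as gained fell steeply with strength. Among regions with a peak in all 3 lists with Ikzf1 and Ikzf4, 42.9% of those with a mean -log10 q under 2 were absent from every list without (4406 of 10270). At a mean of 5 to 10 the share was 10.3% (3874 of 37567), and at 20 or more it was 0.207% (10 of 4825), of which 6 are the regions on chromosomes 10 and 11 described above. The same was seen in the other direction at lower shares: 1880 of 7534 regions with a peak in all 3 lists without and a mean under 2 were lost, 5.87% at 5 to 10 and 0.0387% at 20 or more. In each of the 6 strength classes the gained share was above the lost one. In the strongest class this rests on the 10 gained regions, those 6 included, against 2 lost ones of 5162. The list lengths differ between the groups, and their part in these shares was not tested.

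**Figure D2:**
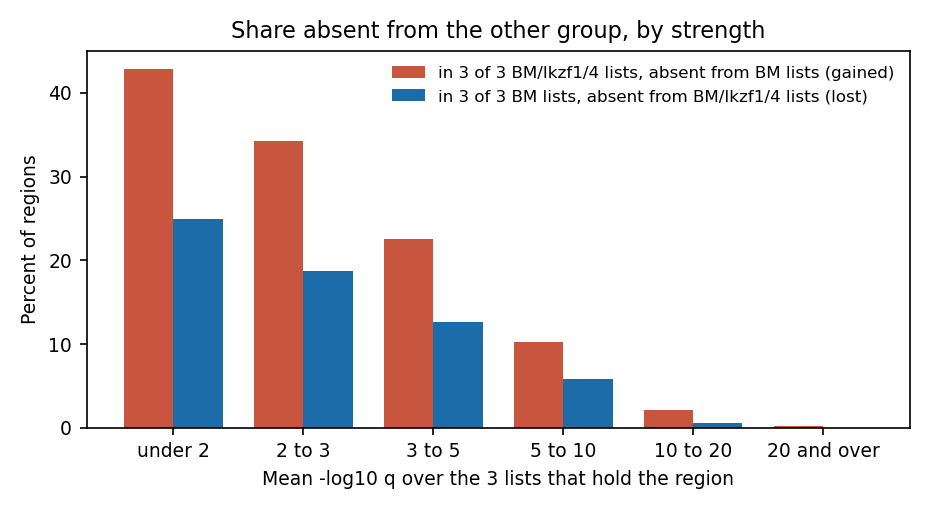
Percent of regions absent from all 3 lists of the other group (y axis) against the mean -log10 q over the 3 lists that hold the region (x axis), for gained and lost regions (BM, Brn2 and Myt1l; BM/Ikzf1/4, with Ikzf1 and Ikzf4 added). The gained share falls from 42.9% in the weakest class to 0.207% in the strongest, and lies above the lost share in each class.

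Gained regions were spread over the whole genome and made up a similar share of the merged regions of every chromosome. On the 19 autosomes 8.36% (chromosome 16) to 10.5% (chromosome 1) of merged regions were gained, around the 9.43% over all. Lost regions made up 3.12% (chromosome 7) to 4.25% (chromosome 18). The number of gained regions for each lost one ran from 2.31 on chromosome 16 to 3.08 on chromosome 14, so gained regions outnumbered lost ones on every autosome with the lists as deposited. Single chromosomes were not recomputed under other settings. The ratio over all chromosomes was 1.12 with equal numbers of peaks per list. Without the shortest list it was 1.27, by rules that were not like for like.

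The X chromosome had fewer regions, and fewer of them were shared or lost. In all 6 lists were 1259 of its 10755 regions, against 76980 of 321676 over all, and 2.93% were lost, below the autosomal range. It held 65.7 merged regions per Mb, against 103 to 134 on the autosomes, and 5.78 gained regions per Mb against 9.82 to 13.9. The gained share of its regions, 8.80%, was within the autosomal range, while its gained regions were weaker, with a median mean -log10 q of 2.50 against 2.86 to 3.07. The lists held 3.03%, 2.57% and 1.86% of their peaks on the X chromosome without Ikzf1 and Ikzf4, the lowest in the short list, and 2.78%, 2.89% and 2.70% with them. On 10 contigs of unplaced sequence 90 of 1365 regions were gained (6.59%).

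**Figure D3:**
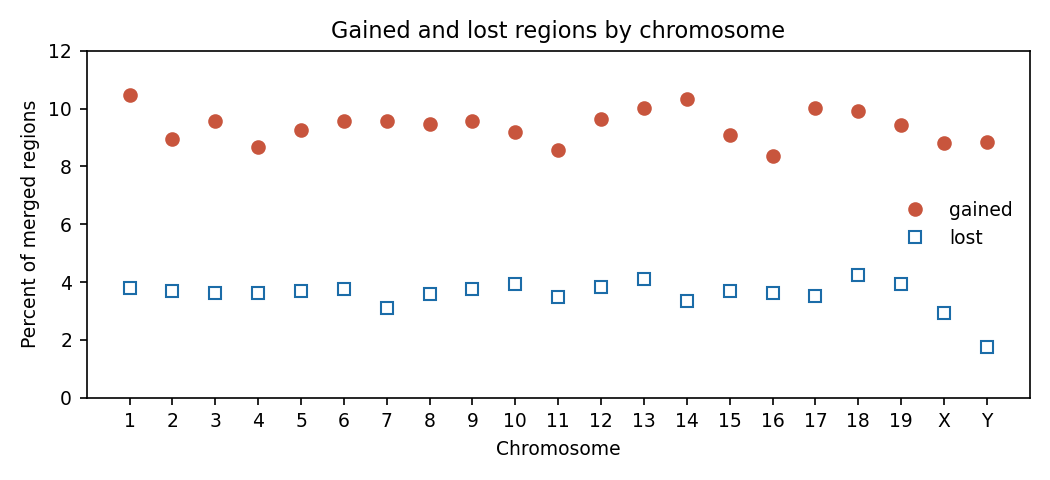
Percent of merged regions that were gained (filled) or lost (open) on each chromosome. Gained shares of the autosomes lie between 8.36% and 10.5% and lost shares between 3.12% and 4.25%.

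Gained regions tended to lie further than lost ones from chromatin that was open in all 6 libraries. The nearest region of all 6 lists was 11.8 kb away at the median for gained regions, 8.70 kb for lost ones and 10.1 kb for all merged regions. For regions in 1 list it was 11.6 kb with Ikzf1 and Ikzf4 and 10.7 kb without, so the median was not particular to gained regions. Within 1 kb of such a shared region lay 5.54% of gained and 7.56% of lost regions. More than 100 kb away lay 3.68% of gained regions (1117) and 1.53% of lost ones (181). These shares fell to 2.03% (640) and 0.866% (216) without the shortest list, and were 5.39% and 3.10% at equal numbers of peaks. They were 22.2% and 14.6% where a peak had to cover 50% of a region to count, and 37.0% and 26.2% with peaks of -log10 q of at least 5 only, so the shares themselves depend on how shared regions are defined. Regions with a peak in a single list, which did not recur, were also often distant: 4.54% of those in 1 list with Ikzf1 and Ikzf4 and 3.02% of those in 1 list without lay over 100 kb away. A share over 100 kb above that of lost regions was therefore not particular to gained regions.

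Set against all regions that were not in all 6 lists, the gained share rose with distance, while the lost share fell beyond 5 kb. Up to 1 kb from a shared region 10.8% were gained and 5.76% lost, or 1.88 gained regions for each lost one. At 1 to 5 kb the shares were 11.8% and 5.77%, and at 20 to 100 kb 13.6% and 4.15%. Beyond 100 kb 14.5% were gained and 2.36% lost, or 6.17 for each lost one.

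The gradient was also computed under other settings. Without the shortest list, under the unequal rules given above, the ratio went from 1.02 within 1 kb to 2.96 beyond 100 kb. With the same number of peaks (131297) from each list it went from 0.711, where lost regions were the more frequent, to 1.94. The ratio beyond 100 kb was 2.25 to 3.62 times that within 1 kb over the 11 settings in which both could be computed. These include the main setting and that without the 6 strongest regions, both at 3.28, so the latter adds nothing. Regions in a single list went the same way. With Ikzf1 and Ikzf4 there were 2726 within 1 kb and 1991 beyond 100 kb, and without them 2727 and 1211. A rise with distance was therefore not particular to gained regions.

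In single libraries, 3.72%, 3.56% and 2.70% of all peaks lay outside shared regions but within 1 kb of one, without Ikzf1 and Ikzf4. With them it was 3.59%, 3.44% and 3.66%, which overlap. Over 100 kb away lay 1.45%, 1.09% and 0.634% of peaks without (2891, 1849 and 833). With the factors it was 1.83%, 2.00% and 1.88% (3628, 4002 and 3887). At equal numbers of peaks the values were 2.29%, 2.20% and 1.94% without, and 2.89%, 2.93% and 2.78% with. By the rule, each of the 1117 gained regions over 100 kb away has a peak in every list with Ikzf1 and Ikzf4. The difference at that distance is therefore no independent support, and peaks outside gained regions were not counted there. By strength, the median distance of gained regions to a shared region was 11.7 kb in the weakest and 11.9 kb in the strongest of 5 classes. By distance, their median mean -log10 q was 2.77 up to 1 kb, 2.95 at 20 to 100 kb and 2.65 beyond 100 kb.

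**Figure D4:**
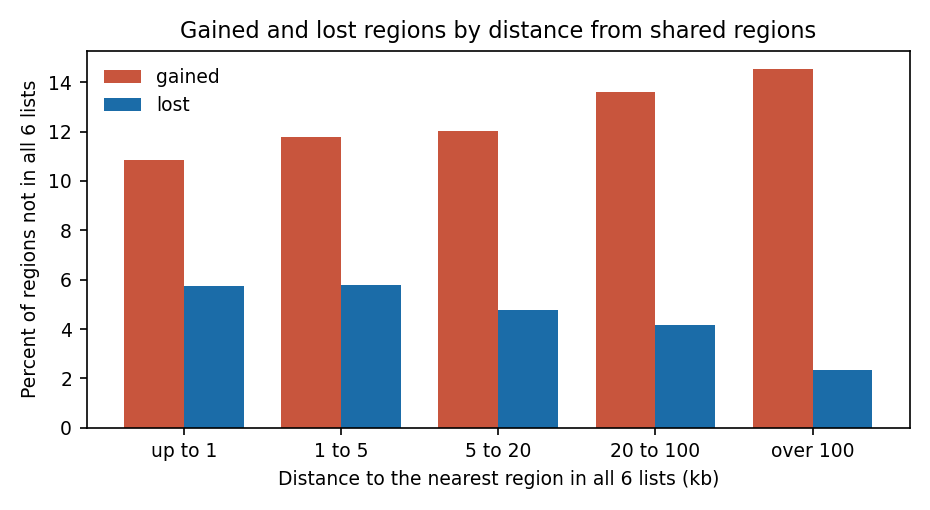
Percent of the regions not in all 6 lists that were gained or lost (y axis) by distance to the nearest region in all 6 lists (x axis, kb). The gained share rises from 10.8% to 14.5% and the lost share, 5.76% and 5.77% in the first classes, falls to 2.36%.

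Gained regions had gained neighbours more often than their overall share. In the order of merged regions along a chromosome, 12.1% of the regions next to a gained one were gained, against 9.43% of all regions. Lost regions showed the same kind of clustering, with 5.08% lost neighbours against 3.67% of all. Regions of all 6 lists were less frequent next to gained ones (21.9% against 23.9%). Next to regions in 1 list they were as infrequent (21.9%), so this was not particular to gained regions. Without the shortest list 12.4% of the neighbours of gained regions were gained, against 10.0% of all regions.

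When gained regions were joined into chains with gaps of at most 25 kb, 14862 (49.0%) stood alone and 7094 (23.4%) fell in 2018 chains of 3 or more. There were 231 chains of 5 or more, and the longest held 10. Lost regions, which were fewer, had 235 chains of 3 or more that held 6.57% of them. More regions make longer chains by themselves, so these shares are not compared. Another gained region lay within 25 kb of 51.0% of gained regions. A gained region lay as near to 45.9% of all merged regions and 46.5% of lost ones. For regions in 1 list it was 47.1% with Ikzf1 and Ikzf4 and 42.9% without. By strength, the share was 51.5% of the gained regions with a mean -log10 q under 2. It was 53.0% of those at 10 or more, the highest of the 5 strength classes. The lowest share was 50.5%, at 5 to 10, and these differences were not tested.

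The chain with the most members lay on chromosome 2 from 41440559 to 41558988 and held 10 gained regions, no lost one and 2 regions of all 6 lists over 118 kb. The rule itself places every peak of a gained region in the lists with Ikzf1 and Ikzf4, so the peaks of a chain are counted here outside its gained regions. On chromosome 2 these numbered 8, 9 and 2 in the lists without and 10, 10 and 9 in those with. Of the 5 chains with the most members, the one with the highest gained share lay on chromosome 9 from 7111688 to 7171961, where 9 of 15 merged regions were gained over 60.3 kb. Outside its gained regions it held 4, 4 and 5 peaks without and 4, 3 and 2 with. These include 1 lost region, whose peaks the reverse rule places in the lists without.

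Among the 5 chains with the most members, those on chromosomes 17 and 8 were the strongest. On chromosome 17 from 33315433 to 33395390, 9 of 16 regions were gained, with a median mean -log10 q of 4.74 and no member under 3.08. Outside them there were 2 peaks in each list without and 3, 3 and 5 in those with. On chromosome 8 from 31139560 to 31239806, 9 of 24 were gained, with a median of 4.27. That chain also held 4 regions of all 6 lists, and its peaks outside gained regions numbered 8, 8 and 6 without and 6, 7 and 12 with, which overlap. The chain on chromosome 1 from 68321387 to 68473642 was weak, with a median of 2.11, and 12 of its 33 regions were open with the factors in all 3 lists but also in 1 or 2 lists without. Outside its gained regions it held 18, 20 and 5 peaks without, those of 1 lost region included, and 19, 19 and 21 with. The shortest list stood apart there. Chains of 5 or more had a median of 2.99 by the same measure, close to the 2.93 of all gained regions, and reached 6.00.

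**Figure D5:**
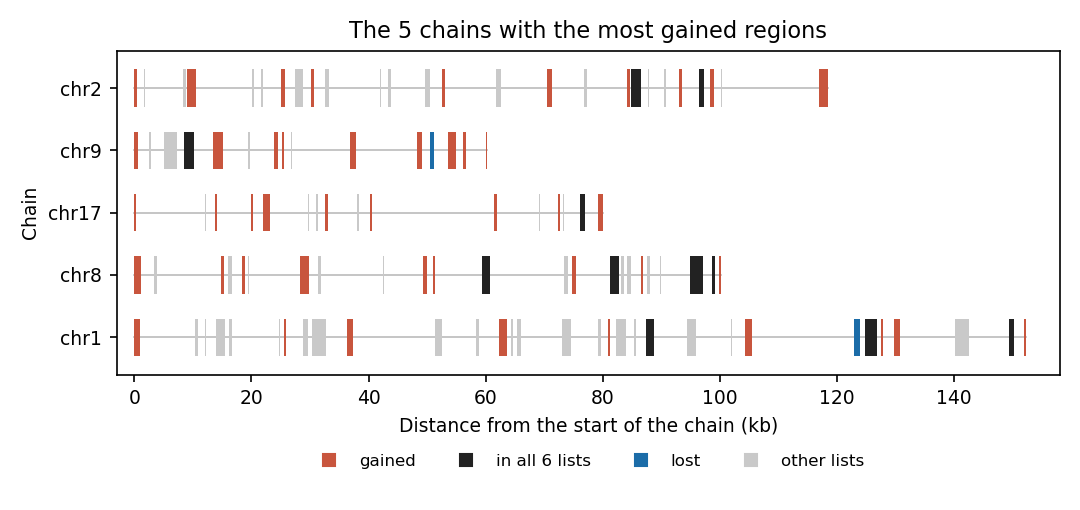
Maps of the 5 chains with the most gained regions (gaps of at most 25 kb), each drawn to scale from its start (x axis, kb), with gained regions, lost regions, regions in all 6 lists and regions of other lists. The chains run from 60.3 to 152 kb, and 2 of them hold a lost region.

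On a larger scale, gained regions were found in 2567 of 2580 windows of 1 Mb, with a median of 11 per window and at most 33. Gained regions outnumbered lost ones in 2307 windows and were outnumbered in 154, with the lists as deposited. Windows were not recomputed without the shortest list or with equal numbers of peaks. In the 2486 windows with at least 50 merged regions, the gained share was 9.22% at the median and ran from 4.51% to 14.8% between the 10th and 90th percentile. Across those windows the gained share was lower where regions of all 6 lists were more numerous (Spearman correlation -0.32, a description only, since regions of all 6 lists are part of the total that the share is taken over).

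A few windows stood out, and they were chosen for this, so their peak counts, which include the gained regions themselves, only describe them. Among windows with at least 50 merged regions, the highest gained share was on chromosome 1 from 103000001 to 104000000. There 31 of 91 regions were gained (34.1%) and none lost. Its peaks numbered 21, 19 and 11 without Ikzf1 and Ikzf4, and 63, 60 and 70 with, of which 32, 29 and 39 lay outside gained regions. On chromosome 6 from 130000001 to 131000000, 16 of 53 regions were gained and no region was in all 6 lists.

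That window held 7, 4 and 1 peaks without and 30, 36 and 34 with, of which 14, 20 and 18 lay outside gained regions. On chromosome 17 there were 3 such windows, from 20000001 to 21000000, from 38000001 to 39000000 and from 40000001 to 41000000, with 23, 23 and 21 gained regions and no lost one in any of them. The first of these held 20, 12 and 5 peaks without and 54, 53 and 59 with, of which 29, 29 and 36 lay outside gained regions. The most gained regions in any window, 33 of 127, were on chromosome 7 from 110000001 to 111000000, and a window on chromosome 2 from 88000001 to 89000000 held 32 of 143. Neither of these had a lost region, although they held 11 and 18 regions of all 6 lists. Among the windows with the most gained regions, the groups did not always stand apart in peaks outside gained regions. They did on chromosome 7 from 110000001 and from 84000001, chromosome 2 from 88000001 and chromosome 1 from 103000001. They overlapped or met on chromosome 5 from 71000001, chromosome 2 from 87000001, chromosome 1 from 101000001 and chromosome 7 from 60000001. How often they stood apart over all windows was not counted. On chromosome 1 from 126000001 to 127000000, where they also overlapped, such peaks numbered 95, 83 and 57 without and 76, 81 and 82 with. On chromosome 8 from 30000001 to 31000000 they numbered 65, 48 and 33 without and 65, 61 and 69 with.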

How the data were processed

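Peaks were called with MACS2 per library, per the labels, and Bowtie2 is named in the submitters' processing notes. In the deposited lists, each peak has a fold over background, which is a linear ratio, a -log10 q and a -log10 p, besides a score that equals 10 times the -log10 q without its decimals in at least 99.99% of peaks of each list. Its version and q limit are not given here. Of builds, mm9 and mm10 stand in the submitters' processing notes. The lists ran past the last mm10 multiome fragment on 10 of 21 chromosomes and held 10 contigs named random, so mm9 was taken. The authors deposited a DESeq2 comparison of RNA with a mean normalised signal, log2 fold changes and p-values, used here for single genes only.

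Merging, classes, distances and chains were computed with Python 3.11.15 and pandas 2.3.3 and tested on simulated peaks. Strength is the highest peak of a list in a region, averaged over 3 lists. The members and lists were chosen with earlier results of these data known. No genome or gene annotation of mm9 was used here, so place relative to genes, motifs, nearby genes and sequences were not analysed here, and the rules that would name genes near regions were not applied. Named regions are the 10 strongest by mean -log10 q and the 5 chains with the most members; 6 further regions and the windows were chosen after their values were seen. The RNA estimates per transcript were not used here.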

Additional observations from a re-analysis of the deposited data

How the results depend on the processing

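The number of gained regions was 30344. It was 11050 with peaks of -log10 q of at least 5 only and 17558 with the same number of peaks from each list, and leaving out 1 library gave 31597 to 40495. Of the main set, 11604 regions (38.2%) overlapped one of these 17558. With -log10 q of at least 5, 1791 regions of the main set (5.90%) overlapped one of the 11050. Of the main set, 63.8% stayed where peaks had to cover 50% of a region, although the number (30418) hardly moved, and 81.7% with peaks within 1 kb shared.

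With -log10 q of at least 5, equal numbers of peaks, peaks within 1 kb counted as shared, and presence where peaks covered at least 50% of a region, the ratio of gained to lost regions was 3.27, 1.12, 2.72 and 2.64. It was 1.27 to 3.07 without 1 library, lowest without replicate 3 of the group without Ikzf1 and Ikzf4. Leaving out a library eases the rules for gained and lost regions unequally, so these ratios are not like for like. The median mean -log10 q was 7.71 at the q limit, 4.44 at equal numbers, 3.56 under the 50% rule and 2.67 to 3.00 without 1 library. The q limit and equal numbers drop the weakest peaks, which pushes this median up by construction. The share in chains of 3 or more was 5.95% at the q limit, 11.4% at equal numbers, 16.9% with peaks within 1 kb shared, 24.2% to 33.3% without 1 library, 6.10% with gaps of at most 10 kb and 50.1% with 50 kb. Fewer or more regions shorten or lengthen chains by construction.

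Over 100 kb from regions in all lists, the ratio was 4.61 at the q limit, 1.94 at equal numbers, 4.01 under the 50% rule and 2.96 to 7.75 without 1 library. Within 1 kb it was 1.49 at the q limit, turned to 0.711 at equal numbers, and was 1.02 to 2.26 without 1 library. Sharing peaks within 1 kb leaves no such region. The gained share of neighbours was 13.2% at the q limit (10.98% of all regions), 9.92% at equal numbers (7.46%), 11.6% under the 50% rule (9.46%) and 12.4% to 16.1% without 1 library (10.0% to 13.4%). The cause of these shifts was not tested.

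All 16 strongest regions were gained under these 4 settings, but only sharing peaks within 1 kb could have changed this. None of the 16 had a peak without Ikzf1 and Ikzf4. Their lowest -log10 q was 12.5, their lowest percentile was 93.5, and their narrowest peaks met the coverage rule. Of the 3 weakest, 2 were with peaks within 1 kb shared and 0 under each of the other 3. With mean -log10 q of at most 1.25 and lowest percentiles of at most 0.205, they could not pass the q limit or equal numbers. Settings other than sharing within 1 kb therefore say nothing about stability here. Leaving out the 6 strongest, a setting chosen after the data were seen, left 30338 regions. With so few removed the results could hardly move, so this setting says nothing about their stability. No paired analysis was possible because the results come from no test. Settings that need a gene annotation, genome or gene counts were not run.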
